A study of Mus musculus with 6 samples.

Results

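The promoters of Sp6, Sp8 and En1, which encode transcription factors of the limb ectoderm, were 3 of the 235 promoters in a table of chromatin accessibility, and they were taken from it by gene symbol. ATAC-seq marks open chromatin by letting the Tn5 transposase cut and tag DNA that is not packed away. The study made 3 such libraries from explants of amputated mouse limbs kept at an air-liquid interface (ALI) and 3 from limbs kept in 96-well plates. Every library came from wild-type CD-1 mice, which are outbred, at 1 day post amputation, with 4 limbs collected per culture. Whether replicates are separate animals is not stated, so p-values here measure only how much these libraries vary, and that may be technical. The comparison asks whether the culture format, and with it the supply of oxygen named in the title of the study, went with a difference in accessibility at these promoters.

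The limb bud is covered by ectoderm, and a thickened strip at its distal margin, the apical ectodermal ridge, secretes fibroblast growth factors that keep the underlying mesenchyme growing. Sp6 and Sp8 are zinc finger proteins of the Sp and Klf family that act in this ectoderm downstream of Wnt and BMP signals and are needed for Fgf8 in the ridge. En1 is a homeodomain repressor of the ventral ectoderm. It keeps the dorsal signal Wnt7a out of ventral cells and helps to set the position of the ridge.

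RefSeq promoter sequences (GRCm38.p6, 250 bases before to 50 after a transcription start) were found for En1 and Sp8, and they are shown because the accessibility of these genes was not centred on the start used in the table. All genes are on the plus strand. RefSeq gives 1 start for En1, at chr1:120602237-120602536, and 3 for Sp8, at chr12:118846079-118846378, chr12:118846983-118847282 and chr12:118847309-118847608. The later Sp8 starts lie 904 and 1230 bases downstream of the first. The table uses GRCm39, so which RefSeq start it follows is not known. Capitals mark every match, on either strand, of GGGCGG (the GC box bound by Sp and Klf factors), CCAAT (the CCAAT box), TATAAA (the TATA box) and ACGTG (the core of the hypoxia response element).
En1: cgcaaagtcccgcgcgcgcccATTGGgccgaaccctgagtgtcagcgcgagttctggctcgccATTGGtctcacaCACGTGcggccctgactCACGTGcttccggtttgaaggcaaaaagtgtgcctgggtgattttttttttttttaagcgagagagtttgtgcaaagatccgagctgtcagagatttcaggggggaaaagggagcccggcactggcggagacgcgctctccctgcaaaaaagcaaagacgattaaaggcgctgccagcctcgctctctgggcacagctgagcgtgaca
Sp8 start 1: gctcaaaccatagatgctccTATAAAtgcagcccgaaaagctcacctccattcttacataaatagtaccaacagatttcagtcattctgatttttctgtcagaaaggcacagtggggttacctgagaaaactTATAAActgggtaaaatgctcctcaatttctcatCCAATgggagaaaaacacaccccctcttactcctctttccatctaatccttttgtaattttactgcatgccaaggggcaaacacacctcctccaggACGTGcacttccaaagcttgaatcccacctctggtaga
Sp8 start 2: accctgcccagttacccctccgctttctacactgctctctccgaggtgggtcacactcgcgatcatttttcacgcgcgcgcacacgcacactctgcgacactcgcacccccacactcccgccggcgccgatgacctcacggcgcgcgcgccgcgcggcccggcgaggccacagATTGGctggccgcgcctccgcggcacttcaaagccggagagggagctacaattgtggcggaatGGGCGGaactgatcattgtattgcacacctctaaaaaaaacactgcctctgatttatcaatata
Sp8 start 3: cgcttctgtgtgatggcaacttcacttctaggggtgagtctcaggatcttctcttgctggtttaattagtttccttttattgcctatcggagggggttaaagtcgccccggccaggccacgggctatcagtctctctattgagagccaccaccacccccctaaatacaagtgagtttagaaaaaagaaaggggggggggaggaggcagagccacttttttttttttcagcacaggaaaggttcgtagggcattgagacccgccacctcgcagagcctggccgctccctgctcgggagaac
The En1 sequence held ACGTG at 2 places, each within the palindrome CACGTG, which matches on both strands and so gave 4 matches. ACGTG was held at all by 19.6% of all 32851 RefSeq promoters of this length and by 21.6% of those of genes in the table. The En1 sequence also held CCAAT 2 times, a motif present in 37.4% of promoters. The first Sp8 sequence held TATAAA 2 times (13.6% of promoters), with first bases at −230 and −118 from the start. It held CCAAT 1 time and ACGTG 1 time. The second held GGGCGG 1 time (35.7% of all RefSeq promoters, 53.4% of those of genes in the table) and CCAAT 1 time. The third held none of these 4 motifs. The Sp8 starts differed in base composition. The first had 43% G and C and a ratio of observed to expected CpG of 0.16, the second 61% and 1.19, and the third 53% and 0.48. The En1 sequence had 57% and 0.95, against medians of 52.7% and 0.38 over all RefSeq promoters. Over the RefSeq promoters of genes in the table the medians were 58.7% and 0.67. CACCC, also bound by Sp and Klf factors, matched 1 time in En1 and 1, 1 and 2 times in the Sp8 sequences (57.5% of promoters). CTTTG, the core of the Lef and Tcf site, matched 3 times in En1 and 1, 1 and 0 times in Sp8 (53.9% of promoters). Matches are descriptions of letters, not of binding.

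Each promoter was covered from 1000 bp upstream to 1000 bp downstream of its transcription start site (TSS) in 100 bins of 20 bp. Values are coverage normalized to sequencing depth, called signal below. The signal of 1 read per base could be read from the smallest steps in the table, and it gave relative depths of 0.77 to 1.29 of the mean of the 6 libraries. Two-sided tests were used throughout. The libraries 96-well replicate 3 and ALI replicate 2 stood apart. Their mean signals over all promoters were 14.7 and 18.6, against 10.1 to 12.4 in the other 4, and their deviations from their group means correlated across promoters (r = 0.81). Levels, ratios, upstream shares and counts of calls are also given without them. The table held 3 of 10 markers fixed for surface ectoderm (Cdh1, St14 and Trp63), whose summed signal was 12.04 to 17.5 in 96-well and 11.3 to 14.1 in ALI libraries. Of 8 limb mesenchyme markers it held Msx1 alone, at 10.5 to 17.7 and 10.2 to 16.1, and of markers for cartilage, muscle, endothelium, macrophages and blood, and nerve it held 0. The labelled tissue could thus be checked only in small part. The part of cell composition in any result was not tested, and fewer ectodermal cells and less open DNA per cell cannot be told apart in these bulk libraries.

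In mean signal over the 6 libraries all 3 promoters lay below the median promoter of the table. By library En1 ran from 79.6% to 100% of the median promoter, the latter in ALI replicate 1. The order of the 3 was the same in every library: En1 highest, Sp8 next and Sp6 lowest. Sp6 (chromosome 11, TSS 96904221) had a mean signal over the window of 2.53, 2.73 and 3.11 in 96-well and 2.67, 3.56 and 3.05 in ALI libraries (replicates 1, 2 and 3). It stood at percentile 23.0 of all promoters. Coverage was 18.2 to 40.9 reads per base, the lowest range of the 3. Sp8 (chromosome 12, TSS 118810065) had signals of 3.66, 3.95 and 6.14 in 96-well and 3.62, 4.79 and 4.15 in ALI libraries, percentile 28.9, with 24.8 to 57.0 reads per base. The 96-well replicate 3 value stood above all others. En1 (chromosome 1, TSS 120530148) had signals of 7.65, 7.75 and 10.4 in 96-well and 9.36, 12.5 and 7.95 in ALI libraries, percentile 45.5, with 54.98 to 143 reads per base. For each gene the ranges of the groups overlapped, while they did not for 5.96% of promoters, and the highest value came from one of the 2 bright libraries. The median promoter of the table had a signal of 10.6.

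**Figure D1:**
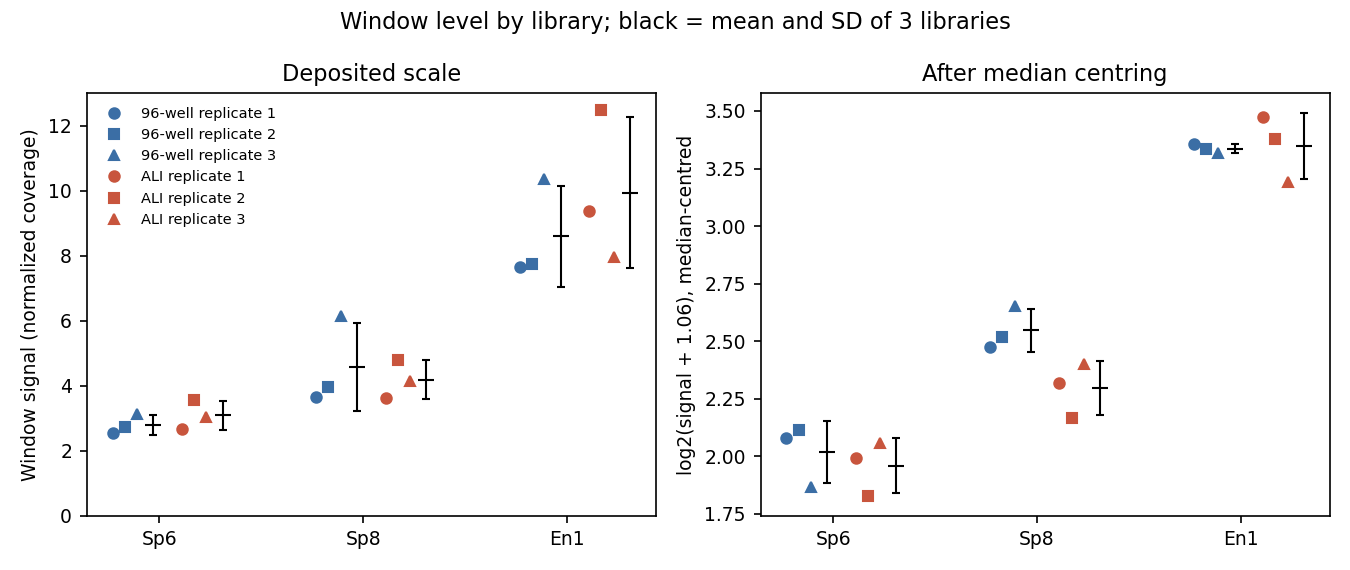
Mean signal over the 2000 bp window of Sp6, Sp8 and En1 in each library, on the deposited scale (left, normalized coverage) and as log2(signal + 1.06) after median centring (right; the axis does not start at 0). Points are libraries, shapes are replicate numbers, and black marks give the mean and SD of 3 libraries; only Sp8 after centring has groups that do not overlap.

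The order held within libraries. Sp8 signal was 1.49 ± 0.24 (SD, n = 6) times that of Sp6, En1 was 2.14 ± 0.37 times Sp8, and En1 was 3.14 ± 0.37 times Sp6. On the log2(signal + 1.06) scale the differences were −0.43 ± 0.18 (SD, n = 6) for Sp6 minus Sp8, −0.92 ± 0.22 for Sp8 minus En1 and −1.35 ± 0.17 for Sp6 minus En1. All 3 were negative in 6 of 6 libraries (exact sign-flip permutation p = 0.031, Benjamini-Hochberg adjusted p = 0.031 over 3 pairs, the smallest p that 6 libraries allow). In the central 400 bp the difference between Sp6 and Sp8 was 0.028 ± 0.31 (SD, n = 6; exact sign-flip permutation adjusted p = 0.81), with 3 of 6 libraries on each side, whereas En1 stayed above both there (adjusted p = 0.047 by the same exact permutation test). Sp9, the other Sp family gene in the table and a relative of Sp8 that also acts in the ridge, had a mean signal of 7.65 ± 1.51 (SD, n = 6), between Sp8 and En1.

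The profiles of the 3 promoters differed from the single peak near the TSS that the table shows on average, and they differed from each other. The ratio of the central 400 bp to the outer 200 bp on each side, taken on the mean profile of 6 libraries, was 1.82 for Sp6, 1.01 for Sp8 and 0.98 for En1. The median over the 235 promoters was 4.76. A ratio near 1 means that the centre was about as open as the mean of both edges, which can differ from each other. For Sp8 and En1 the centre was more open than the upstream side and less open than the stretch from 600 to 1000 bp. Sp8 signal averaged 1.47 from −1000 to −600 bp, 3.83 in the centre and 7.53 from 600 to 1000 bp (n = 6). En1 signal averaged 5.69, 9.60 and 15.3 in the same segments. From 200 to 600 bp Sp8 averaged 7.42, above its centre, and En1 7.75, below its centre. En1 and Sp8 ranked low in the ratio, since 30 and 32 promoters had lower ratios than they did, and 72 had a lower ratio than Sp6. For Sp9 the ratio was 3.58, with its highest bin at −50 or −70 bp in all 6 libraries.

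**Figure D2:**
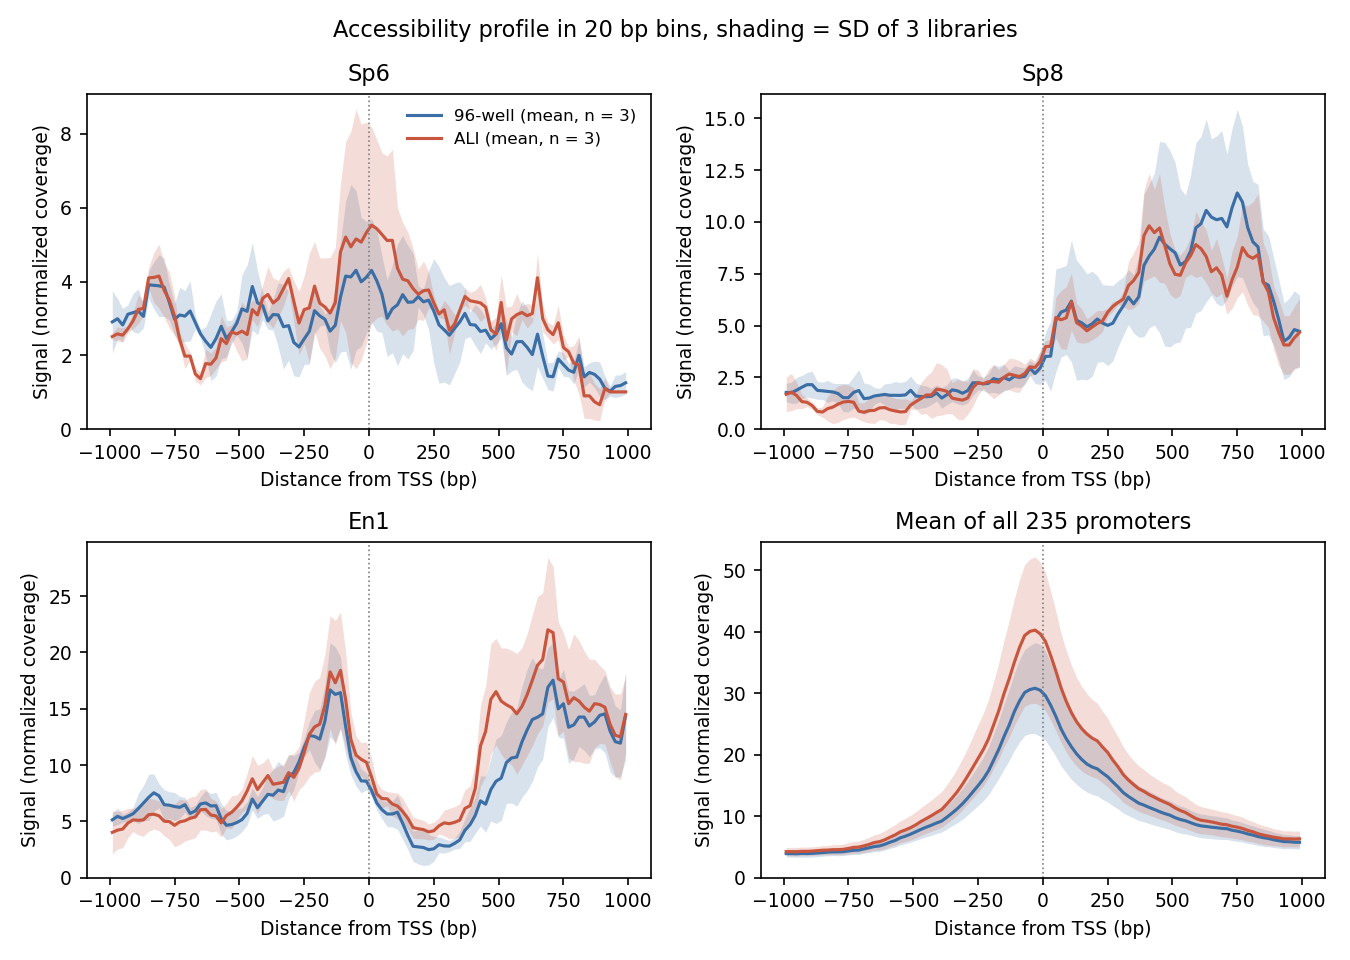
Signal (normalized coverage) in 20 bp bins against the distance from the TSS for Sp6, Sp8, En1 and the mean of all 235 promoters; lines are means of 3 libraries per culture, shading is the SD, and vertical scales differ between panels. The mean of all promoters forms 1 peak near the TSS, while Sp8 is open downstream and En1 has a summit on each side of the TSS.

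Sp8 was open downstream of its TSS, with little signal upstream of it. The share of its window signal that lay upstream was 29.3%, 23.3% and 15.1% in 96-well and 21.4%, 16.7% and 20.9% in ALI replicates 1 to 3. Only 19 of 235 promoters had a lower upstream share on the mean profile, where that of Sp8 was 20.4% and the median of all promoters 44.9%. Signal at the TSS itself (bin at 10 bp) was 3.75 ± 0.79 (SD, n = 6), against 1.73 ± 0.59 at −990 bp. It was 9.09 ± 2.70 at 430 bp and 9.61 ± 3.35 at 750 bp. The downstream part thus held the bulk of the signal in every library. On the mean profile the highest bin of Sp8 lay at 770 bp, and 32 of 235 promoters (13.6%) had their highest bin more than 400 bp downstream.

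En1 had a summit on each side of the TSS with a trough between them, in all 6 libraries. The upstream summit lay at −110 or −150 bp and the highest downstream bin at 690 or 710 bp. Signal at −150 bp was 13.8, 14.7 and 21.5 in 96-well and 14.5, 23.9 and 16.4 in ALI libraries, and at 710 bp it was 15.0, 16.3 and 21.3 against 18.8, 28.5 and 17.9. The trough was deep. Signal at 230 bp was 2.09, 1.40 and 4.01 in 96-well and 3.31, 4.72 and 4.21 in ALI libraries. The downstream summit exceeded the upstream one in 5 of 6 libraries, with a ratio of 0.99 in 96-well replicate 3 and of 1.01 to 1.27 in the others. Downstream signal did not return to the level of the upstream edge by the end of the window. From 600 to 1000 bp it averaged 14.2 ± 3.31 (SD, n = 3) in 96-well and 16.4 ± 4.54 in ALI libraries, against 6.25 ± 0.55 and 5.14 ± 1.51 from −1000 to −600 bp.

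Sp6 had a low, broad profile whose highest bin changed place between libraries. It lay at −70 bp in 96-well replicate 3, −50 bp in ALI replicate 2 and 70 bp in ALI replicate 3, but at −430, −450 and −390 bp in 96-well replicates 1 and 2 and ALI replicate 1. Signal at −50 bp was 3.62, 2.58 and 6.73 in 96-well and 1.90, 8.88 and 4.69 in ALI libraries. The peak at the TSS was therefore seen in some libraries of each culture. The libraries with a summit at the TSS had relative depths of 1.04, 1.29 and 1.15, and the others 0.80, 0.96 and 0.77; the part of depth in this was not tested. The ratio of centre to flanks for Sp6 was also highest in those 3 libraries, at 1.30, 1.21 and 2.08 in 96-well and 1.14, 3.15 and 2.18 in ALI libraries.

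Between cultures, none of the 3 promoters differed in level beyond the spread between libraries. limma, fitted over all 235 promoters on log2(signal + 1.06), called 0 promoters on the deposited scale at a Benjamini-Hochberg adjusted p of 0.05 (0% called), with 7 at an unadjusted p under 0.05. Without the 2 bright libraries it called 79, with 76 promoters higher in ALI, 3 lower and 0 members among them. After the median centring described below, the same 4 libraries gave 78 calls, 52 higher and 26 lower. ALI minus 96-well was 0.11 ± 0.15 (SE; 95% interval −0.19 to 0.40, limma adjusted p = 0.87) for Sp6. It was −0.084 ± 0.18 (−0.44 to 0.27, limma adjusted p = 0.89) for Sp8. For En1 it was 0.18 ± 0.26 (−0.33 to 0.69, limma adjusted p = 0.87). These intervals leave room for an En1 level from 0.79 to 1.62 times that in 96-well culture, so the data do not show that the cultures were alike. None of these changes was stable to leaving out 1 library. Sp8 stood at 0.10 without 96-well replicate 3 and at −0.0050 without ALI replicate 1. Without ALI replicate 2, Sp6 stood at 0.027 and En1 at 0.018.

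Libraries differed in overall level, with a median change over all promoters of 0.14, and median centring removed that shift (median then −0.031). Each library was shifted by the median of its deviations from the mean of each promoter. After it limma called 51 promoters (21.7% called), 27 higher and 24 lower in ALI, and 0 of the 3 members. The split moved with the scaling and the libraries, to 58 higher and 15 lower with equal flanks and to 41 higher and 17 lower after centring without 96-well replicate 3. After centring the variance was taken wholly from the trend with signal. Without that trend 0 promoters were called after centring, where 65 had an unadjusted p under 0.05 and the lowest limma adjusted p was 0.061. Quantile normalization and cyclic loess, where the variance was not taken wholly from the trend, gave 38 and 61 calls. Sp8 came nearest. Its centred log2 levels were 2.47, 2.52 and 2.65 in 96-well and 2.32, 2.17 and 2.40 in ALI libraries, so the groups did not overlap. That was also so for 39.1% of promoters, 17.4% with ALI lower. The centred change of Sp8 was −0.25 ± 0.12 (SE; 95% interval −0.50 to −0.0066, limma adjusted p = 0.12), lower in 3 of 3 ALI libraries than in any 96-well library. Without the 2 bright libraries it was −0.11 (limma adjusted p = 0.50). Sp6 stood at −0.061 (limma adjusted p = 0.83), the opposite sign to the deposited scale, and En1 at 0.011 (limma adjusted p = 0.96).

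**Figure D3:**
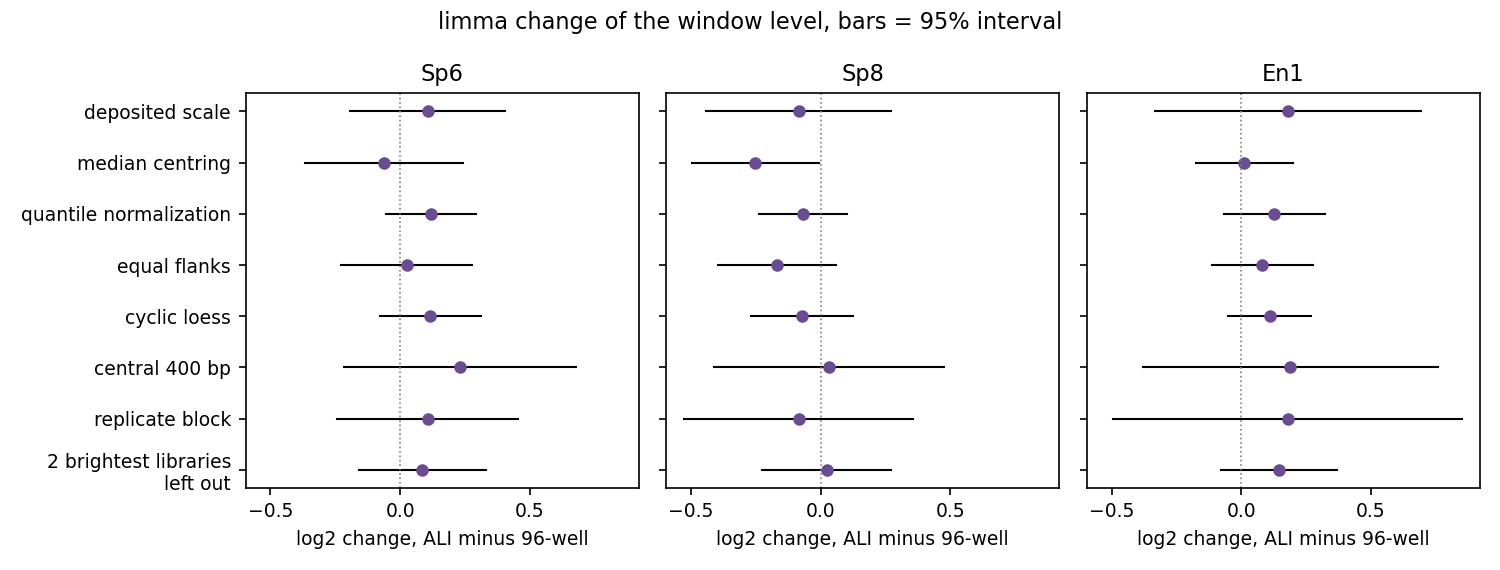
Change of the window level (log2 of signal + 1.06, ALI minus 96-well) for Sp6, Sp8 and En1 under 8 settings of scaling, region, pairing and libraries; points are limma estimates and bars 95% intervals. Among the settings drawn, the interval excludes 0 only for Sp8 after median centring, where the adjusted p is 0.12.

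The form of the profiles was compared by ratios and shares, which do not depend on the scaling of a library. The ratio of centre to flanks was higher on average in ALI for all 3 genes, and each pair of groups overlapped. It was 2.16 ± 1.00 (SD, n = 3) against 1.53 ± 0.48 for Sp6, 1.11 ± 0.21 against 0.957 ± 0.23 for Sp8, and 1.09 ± 0.24 against 0.895 ± 0.043 for En1. Exact permutation p-values were 0.5, 0.4 and 0.2 (adjusted p = 0.5 for each over 3 genes), where 0.1 is the smallest that 3 libraries against 3 allow. Of promoters with signal in every library, 32.1% had groups that did not overlap in this ratio, 27.4% with ALI higher and 4.7% with ALI lower. A higher ratio in ALI was thus not particular to these genes. The differences of 0.63, 0.16 and 0.20 were not stable: with 1 library left out they ran from 0.13 (without ALI replicate 2) to 1.13 for Sp6, and from 0.037 and 0.063 (both without ALI replicate 3) to 0.28 and 0.30 for Sp8 and En1. Without the 2 bright libraries they were 0.41, 0.23 and 0.25. When the ratio was narrowed to the middle 200 bp and the last 100 bp at either edge, the En1 groups did not overlap (1.11 ± 0.25 against 0.893 ± 0.054, SD, n = 3; exact permutation p = 0.1, adjusted p = 0.3). How many of all promoters had groups apart in this narrowed ratio was not counted, so the En1 separation has no background rate. The upstream share was lower on average in ALI, at 52.1% ± 1.43 against 56.3% ± 4.55 for Sp6, 19.7% ± 2.61 against 22.6% ± 7.10 for Sp8, and 41.6% ± 1.55 against 47.4% ± 3.75 for En1 (SD, n = 3). Groups again overlapped (exact permutation p = 0.3, 0.5 and 0.2; adjusted p = 0.45, 0.5 and 0.45), while 28.6% of promoters had groups that did not. Within 400 bp of the TSS the Sp6 difference shrank from −4.27 to −0.29 percentage points (exact permutation p = 1.0). There the En1 groups did not overlap, at 67.9% ± 2.72 against 72.7% ± 1.92 (SD, n = 3; exact permutation p = 0.1, adjusted p = 0.3). The rate of such separation over all promoters was not counted within 400 bp either. Without the 2 bright libraries the differences over the whole window were −7.62 for Sp6, −5.14 for Sp8 and −7.23 for En1.

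With the window divided into 5 segments of 400 bp, 1 of the 15 member segments had groups that did not overlap in signal and 1 in its share of the window. Over all promoters that was so for 11.6% of segments by signal and 28.5% by share. The first was the segment of Sp6 from −1000 to −600 bp, with 3.00 to 3.28 in 96-well and 2.66 to 2.93 in ALI libraries. In that segment 11.1% of promoters were likewise lower in ALI. The other was the segment of En1 from 200 to 600 bp, which holds the trough. Its share of the window was 11.3% to 16.1% in 96-well and 18.2% to 20.1% in ALI libraries, in a segment where 11.1% of promoters were likewise higher in ALI.

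Bin by bin, ALI signal lay above all 96-well libraries in 8 of 100 bins of Sp6, 0 of Sp8 and 5 of En1, against 5.34% of all bins. It lay below them in 6, 3 and 1 bins, against 5.72%. The 5 higher En1 bins lay between 270 and 470 bp and the 8 higher Sp6 bins between 390 and 770 bp, so all of them were downstream. With each bin divided by the window mean, 3, 9 and 12 bins of Sp6, Sp8 and En1 were higher in ALI (8.39% of all bins) and 5, 9 and 8 were lower (14.2%). Of the 12 higher En1 bins 11 were downstream, and all 8 lower ones were upstream, between −990 and −250 bp. Neighbouring bins share reads and are not independent.

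**Figure D4:**
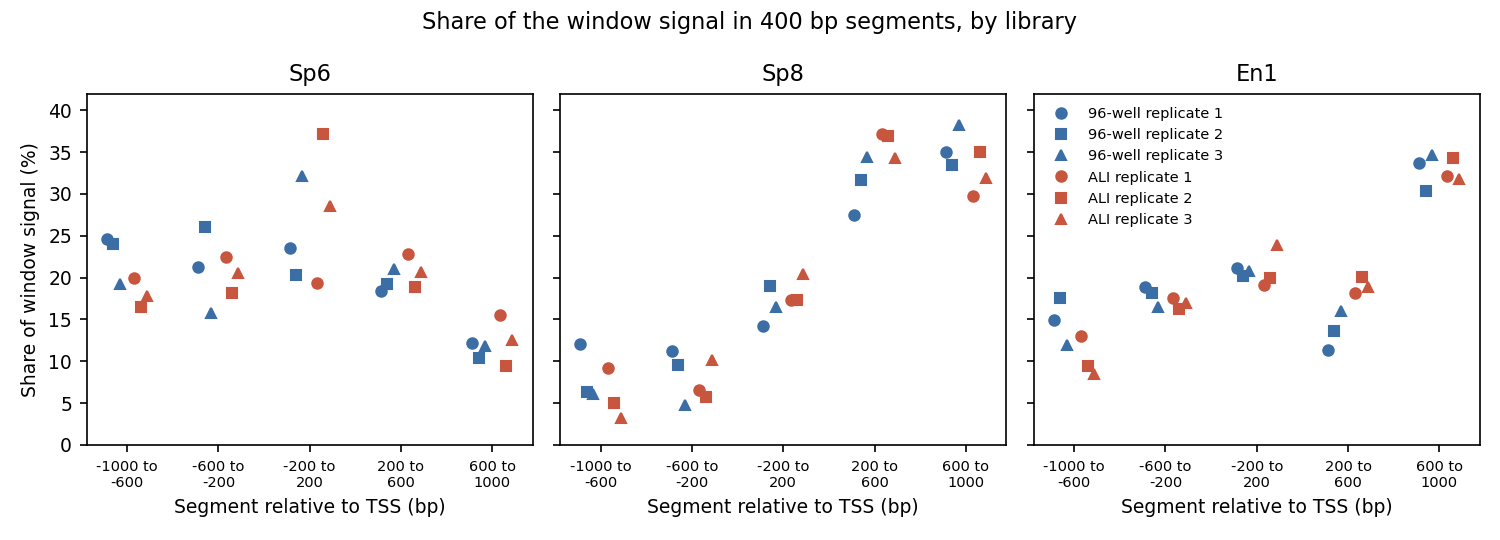
Share of the window signal (percent) in 5 segments of 400 bp for Sp6, Sp8 and En1; points are libraries and shapes are replicate numbers. The groups do not overlap only for En1 from 200 to 600 bp, where ALI libraries hold 18.2% to 20.1% and 96-well libraries 11.3% to 16.1%.

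Some details of the downstream profiles also separated the cultures. They were picked after the profiles were seen and are given as descriptions, with no test. The highest bin of Sp8 lay at 770, 750 and 750 bp in 96-well and at 470, 450 and 410 bp in ALI libraries. All ALI summits were thus nearer to the TSS, and 5.11% of promoters had summit positions that did not overlap between groups, 2.98% of all promoters with a lower position in ALI. At 750 bp the Sp8 signal was 8.62, 9.54 and 16.02 in 96-well and 6.28, 9.20 and 7.99 in ALI libraries, so the bin values themselves overlapped. The mean signal from 200 to 600 bp was 0.877 ± 0.081 (SD, n = 3) times that from 600 to 1000 bp in 96-well and 1.13 ± 0.11 times in ALI libraries. For En1 this ratio was 0.42 ± 0.07 and 0.58 ± 0.01. Neither gene's groups overlapped in it, nor did those of 27.8% of promoters, mostly with ALI higher (22.6%). For Sp6 the groups overlapped, at 1.71 ± 0.17 and 1.71 ± 0.27.

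The En1 trough was shallower in the ALI libraries. The lowest bin between the summits was 2.09, 1.40 and 3.12 in 96-well and 3.31, 4.72 and 3.26 in ALI libraries. The downstream summit stood 7.21, 11.6 and 6.82 times above it in 96-well and 5.90, 6.22 and 5.50 times in ALI libraries. Groups did not overlap in 11.1% of promoters for the lowest bin (8.94% with ALI higher) and in 11.8% for the ratio (7.27% with ALI lower). The nearest libraries differed little: 3.12 against 3.26 for the lowest bin, the former from 96-well replicate 3.

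The promoters most like the members in form were found by Pearson correlation of mean profiles over the 100 bins, which share libraries and neighbouring reads. For Sp8 they were Gm19531 (r = 0.90), Fgf9 (0.89), a ridge growth factor, and 9530020I12Rik (0.87). For En1 they were Gm39388 (0.81), a window with a mean signal of only 0.98, Dok2 (0.74) and Notch3 (0.72). For Sp6 they were Mapkapk5 (0.77), 3110070M22Rik (0.76) and Gm16675 (0.76). Among the members, the profile of Sp8 correlated with that of En1 at 0.46 and with that of Sp6 at −0.27, and En1 with Sp6 at −0.37. Over the 6 libraries, the centred level was most like that of Lama1 (r = 0.97), Bmp4 (0.94) and St14 (0.89) for Sp8, of Fzd8 (0.76), Gm16675 (0.72) and Polr2l (0.72) for En1, and of Slc37a1 (0.99), Cyp2b13 (0.98) and Il2 (0.98) for Sp6. The last 3 had mean signals of 0.95 to 1.50, against a pseudocount of 1.06. The correlations over libraries rest on 6 points each, are the 3 highest for each member and were not tested.

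Genes that act with these factors in the limb ectoderm were counted from lists, none of which had a member called on the deposited scale. The lists were chosen with earlier results of these data known, so the counts are descriptions and not independent support. After centring, against 11.5% of all promoters called higher and 10.2% called lower, each list had 0 called higher. As for all promoters, 0 of the calls below were made after centring without the trend, where the lowest adjusted p of limma was 0.061. Of the ridge growth factors 1 of 4 was lower in ALI (Fgf8), of the Wnt pathway 3 of 8 (Tcf7, Rspo2 and Dkk1), of the BMP pathway 2 of 5 (Bmp4 and Bmp2), of the Dlx and Trp63 factors 1 of 5 (Dlx2), and of the Notch genes 0 of 3. Axin2, also on the Wnt list, went the other way at 0.24 ± 0.10 (SE, limma adjusted p = 0.095) and was not called. Wnt3a stood at −0.0061 (limma adjusted p = 0.98). The centred change was negative for 7 of the 8 Wnt genes. Fgf8, the ridge factor that depends on Sp6 and Sp8, had a centred change of −0.40 ± 0.10 (SE; limma adjusted p = 0.0020), and Dlx2, a homeobox factor of the ridge, one of −0.34 ± 0.09 (limma adjusted p = 0.0041). The median centred change of these 5 lists ran from −0.27 for the ridge growth factors to −0.18 for the Notch genes, against −0.031 over all promoters. The centred changes of Sp8, Sp6 and En1 were −0.25, −0.061 and 0.011. The table held 4 of 4 listed ridge growth factors, 8 of 20 Wnt, 5 of 11 BMP, 5 of 6 Dlx and Trp63 and 3 of 4 Notch genes. It held 1 of 9 other Sp and Klf factors, Sp9, and of 3 dorsoventral genes En1 alone. Sp9 stood at −0.10 ± 0.10 (limma adjusted p = 0.54). Whether the members differ from these genes was not tested.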

How the data were processed

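The authors deposited ATAC-seq signal as 1 table of depth-normalized coverage, made with deepTools in 20 bp bins around 235 TSSs, per the file headers, where the blocks of bins of the 6 libraries are labelled. The formula of the normalization and the choice of promoters are not given in the sources. Per the submitters' processing notes the tools include Bowtie2 2.5.1, Trim Galore 0.6.10, deepTools 3.5.1, SAMtools 1.16.1 and Picard, and the build is GRCm39. No source used here says whether reads were shifted for Tn5 or duplicates removed.

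The window mean was analysed as log2(signal + 1.06), where the pseudocount is 0.1 of the median promoter signal, with limma 3.58.1 in R 4.3.3 (eBayes with trend, Benjamini-Hochberg over 235 promoters, threshold 0.05). With all 6 libraries, deposited or centred, the trend alone set the variance. The script was tested on simulated data. Ratios and shares were compared by exact permutation over libraries (scipy 1.17.1), and levels between genes by exact sign flips. Low bin values were whole multiples of 1 step (100% within 0.1 of a step), which gave the reads per base; total reads are unknown and no count test was run. Libraries of the same number deviated together for replicate 1 (r = 0.67) but in opposite directions for replicates 2 and 3 (r = −0.61 and −0.60). They were not treated as pairs. Alternatives were other pseudocounts, scalings and regions, a filter on low signal, a replicate block, and left-out libraries; leaving out the 2 bright libraries was chosen after seeing the data. Named genes were the members, up to 4 of each list by p in the deposited-scale fit, and the 3 most like each member; Dkk1 was named after its value was seen. The members and lists were chosen with earlier results of these data known.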

Additional observations from a re-analysis of the deposited data

How the results depend on the processing

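No member was called under any of the 26 (Sp6) or 27 (Sp8 and En1) alternatives. Precision is limited by 3 libraries per group. Sp6 had the lowest coverage, and the filter on low signal removed it as 1 of 59 promoters. From 0 on the deposited scale, the number of promoters called moved to 51 with median centring, 38 with quantile normalization, 73 with equal flanks, 61 with cyclic loess, 60 in the central 400 bp after centring, and 79 and 78 (deposited and centred) without the 2 bright libraries. The replicate block gave 0 calls on the deposited scale and 39 after centring. Leaving out 1 library gave 0 to 0 calls on the deposited scale. After centring it gave 22, 25 and 58 without 96-well replicates 1, 2 and 3, and 50, 53 and 40 without ALI replicates 1, 2 and 3.

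The change of Sp6 turned from 0.11 to −0.061 with centring, also without the trend or with the replicate block, to −0.017 in the central 400 bp after centring and to −0.051 without the bright libraries after centring. With 1 library left out it ran from 0.027 to 0.18 on the deposited scale. After centring it was −0.035, −0.019 and −0.13 without 96-well replicates 1, 2 and 3, and −0.077, 0.021 and −0.11 without ALI replicates 1, 2 and 3. Sp8 turned from −0.084 to 0.033 in the central 400 bp and to 0.023 without the bright libraries. With 1 library left out it ran from −0.20 to 0.10, and after centring from −0.30 to −0.17. En1 turned from 0.18 to −0.058 in the central 400 bp after centring and to −0.050 without ALI replicate 1 after centring. The upstream share of Sp8 ran from −6.64 to 0.44 percentage points with 1 library left out, the latter without 96-well replicate 1, that of Sp6 from −6.88 to −2.72 and that of En1 from −7.86 to −4.22. For a given region and set of libraries, centring moves the change of every promoter by the same amount. The cause of the other turns was not tested.

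Sp6 minus Sp8 was 0.028 in the central 400 bp. With 1 library left out, Sp6 minus Sp8 ran from −0.45 to −0.36, Sp6 minus En1 from −1.40 to −1.31 and Sp8 minus En1 from −0.97 to −0.86, where 5 libraries allow no exact permutation p under 0.0625. Without the bright libraries they were −0.37, −1.28 and −0.91 (exact permutation p = 0.125, the smallest that 4 allow).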
